A study of Mus musculus with 8 samples.

Results

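The 9 genes described here encode leukocyte chemokine receptors: Ccr1, Ccr2, Ccr3, Ccr7, Cxcr2, Cxcr3, Cxcr4, Cxcr6 and Cx3cr1. They were taken by name and not by their values. Each was represented by 1 probe set, the one that names this gene alone and has the highest mean over all 8 tumors, and they are 9 of the 19937 genes represented that way. The line behind every tumor was 4T1, a transplantable mammary carcinoma of the mouse, grown for 18 days in the fourth mammary gland of BALB/c mice. For 4 tumors, here called nonirradiated, the gland was untreated at implantation, and for the other 4, called preirradiated, it had been given a single X-ray dose of 20 Gy beforehand. The label is thus one of the tissue bed, since the implanted cells were not irradiated. Whole-tumor RNA was hybridized to 1 Affymetrix Mouse Gene 1.0 ST array per tumor, and the values are log2 signals, on which a difference of 1 is a change by a factor of 2. Separate mice per tumor are not stated, so p-values measure the spread between these tumors.

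Chemokine receptors sit in the leukocyte membrane, span it with a bundle of helices and pass the signal of a bound chemokine to G proteins of the Gi class. The chemokine gradient then steers the cell, first from the bone marrow into the blood and later from the blood into a tissue. Each receptor marks an overlapping set of leukocytes: Ccr1, Ccr2 and Cx3cr1 are best known on monocytes and macrophages, Cxcr2 on neutrophils, Cxcr3 and Cxcr6 on activated T cells and NK cells, Ccr7 on mature dendritic cells and naive T cells, Ccr3 on eosinophils, and Cxcr4 on most leukocytes and on many carcinoma cells.

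Of the 9 genes, 5 lie on mouse chromosome 9. In the RefSeq gene order Ccr1, Ccr3 and Ccr2 stand in 1 cluster with Cxcr6, Xcr1 and Ccr1l1, and Cx3cr1 lies apart from it beside Ccr8. Cxcr2 and Cxcr4 are on chromosome 1, Ccr7 is on chromosome 11 and Cxcr3 is on the X chromosome. The 250 bases before the annotated start were taken from RefSeq (GRCm38.p6) for 8 of the 9 genes (Ccr7 is the exception). The 4 windows printed belong to the receptors whose levels follow each other most closely across the tumors (Ccr2, Cxcr3 and Cxcr6) and to the receptor that varied most and ran against them (Cxcr2). They are written 5′ to 3′ on the strand of the gene, and capitals mark matches to 2 motifs on either strand, GAGGAA (the core bound by ETS factors of the PU.1 type, read as TTCCTC on the other strand) and TGTGGT (the RUNX core, read as ACCACA).
Cxcr2, chr1:74153744-74153993, plus strand: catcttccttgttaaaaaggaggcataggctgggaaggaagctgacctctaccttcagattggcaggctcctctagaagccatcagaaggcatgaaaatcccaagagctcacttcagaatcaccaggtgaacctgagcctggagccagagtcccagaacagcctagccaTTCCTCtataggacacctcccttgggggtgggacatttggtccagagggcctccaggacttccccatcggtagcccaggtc
Ccr2, chr9:124101933-124102182, plus strand: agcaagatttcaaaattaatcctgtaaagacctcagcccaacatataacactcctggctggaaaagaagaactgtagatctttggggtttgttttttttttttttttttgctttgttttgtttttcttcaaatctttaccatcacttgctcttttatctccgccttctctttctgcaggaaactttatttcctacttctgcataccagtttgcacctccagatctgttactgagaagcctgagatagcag
Cxcr3, chrX:101734148-101734397, minus strand: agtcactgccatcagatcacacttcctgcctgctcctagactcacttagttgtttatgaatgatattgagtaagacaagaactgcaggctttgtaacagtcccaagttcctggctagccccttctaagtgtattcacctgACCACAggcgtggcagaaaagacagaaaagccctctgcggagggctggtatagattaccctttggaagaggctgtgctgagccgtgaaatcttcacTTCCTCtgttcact
Cxcr6, chr9:123806227-123806476, plus strand: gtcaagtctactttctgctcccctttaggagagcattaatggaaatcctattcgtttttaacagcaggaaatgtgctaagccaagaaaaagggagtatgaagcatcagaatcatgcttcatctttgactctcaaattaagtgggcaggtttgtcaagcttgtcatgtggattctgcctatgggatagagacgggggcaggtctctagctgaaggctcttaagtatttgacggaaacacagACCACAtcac
The Cxcr2 window holds the ETS letters once, from 81 to 76 bases before the start. The Cxcr3 window holds both motifs, RUNX from 110 to 105 and ETS from 14 to 9 bases before the start, and the Cxcr6 window holds RUNX from 10 to 5 bases before it. The Ccr2 window has no match to either.

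Across the 8 windows the ETS letters were in 4 (Ccr1, Ccr3, Cxcr2 and Cxcr3) and the RUNX letters in 4 (Ccr1, Cx3cr1, Cxcr3 and Cxcr6). Of all 32851 RefSeq windows of this length 23.3% hold the ETS letters and 14% the RUNX letters. The AP-1 letters TGANTCA were in 1 window, that of Ccr3, against 6.75% of all windows, and the interferon response element was in 0 of 8, against 2.98%. None of the matches overlapped another. These are matches of letters in 1 stretch of the reference, and no binding was measured.

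The arrays were alike: the highest correlation between any 2 was 0.9961 and none held identical values. All 8 epithelial markers were above the background floor in the tumors, with a mean between 9.33 and 9.95, and the tissue label is a mammary epithelial carcinoma. The floor, 5.47, is the 95th percentile of the means of 1027 olfactory receptor genes, taken as not expressed in this tissue. Markers of other tissues were not even. The mean of 11 skeletal muscle markers was 9.31 in preirradiated tumor 1 and 10.74 in preirradiated tumor 3, against 6.12 to 6.42 in the other 6 tumors, and the mean of 7 adipocyte markers was 8.39 in preirradiated tumor 1 and at most 6.90 elsewhere. The mean of 8 fibroblast markers was 9.01 to 9.26 in nonirradiated and 9.34 to 9.70 in preirradiated tumors, without overlap. In estimate 7 of 8 fibroblast, 7 of 7 endothelial and 7 of 8 epithelial markers were higher in preirradiated tumors, with medians of 0.39, 0.13 and 0.24.

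No receptor differed between the beds by more than the spread between tumors. By limma, 0 of the 9 passed an adjusted p of 0.05, as did 0% of all 34738 probe sets tested. At an unadjusted p under 0.05 the count was also 0 of 9, against 5.80% of all probe sets, and 0 of 9 passed the filter the study set (unadjusted p no higher than 0.05 with a log2 difference of 0.4 or more either way), against 0.642%. In 0 of 9 did the groups keep apart without overlap, against 3.36%. The estimates leaned downward: 8 of 9 were lower in preirradiated tumors, with a median difference of -0.12, where 52.6% of all genes were lower with a median of -0.0038. With the mean of 6 pan-leukocyte markers in the fit, 4 of 9 were lower and the median was 0.0109. Those markers averaged 10.42 to 10.64 in nonirradiated and 10.25 to 10.44 in preirradiated tumors, while the fibroblast mean was higher in every preirradiated tumor. The pan-leukocyte mean itself differed between the beds (10.36 in preirradiated and 10.51 in nonirradiated tumors), so that fit cannot tell it and the bed apart. The part of these shifts in the receptors' values was not tested. In bulk tissue fewer cells of a type and less RNA per cell cannot be told apart.

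**Figure D1:**
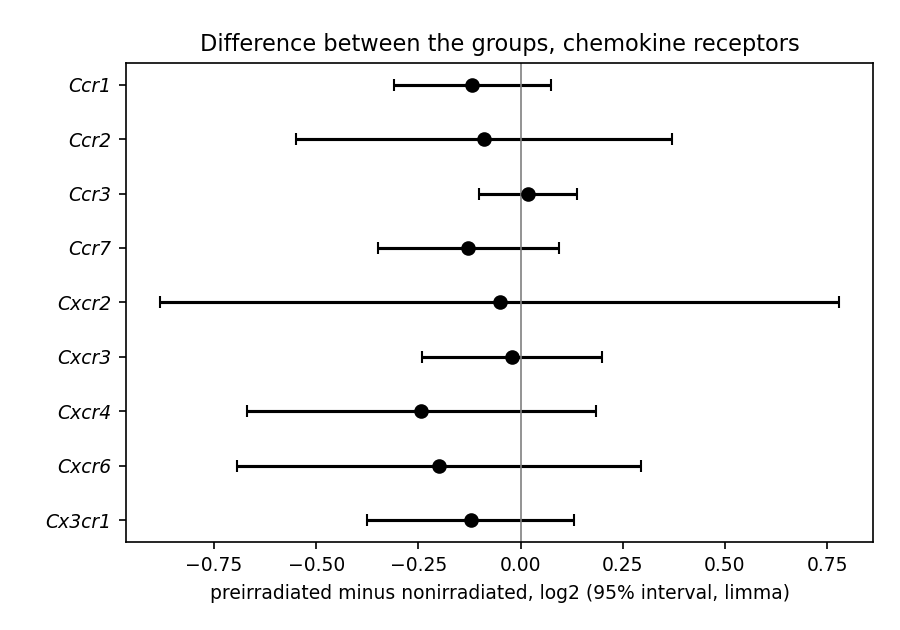
Difference of each receptor between the groups (horizontal axis, preirradiated minus nonirradiated, log2) as estimated by limma, with its 95% interval, for 4 tumors against 4. Every interval spans 0, and the widest, that of Cxcr2, runs from -0.88 to 0.78.

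Cx3cr1, the receptor of the membrane-bound chemokine Cx3cl1, read 10.53, 10.44, 10.08 and 10.18 in nonirradiated tumors 1 to 4 and 10.002, 10.26, 10.18 and 10.30 in preirradiated tumors 1 to 4. Nonirradiated tumors 1 and 2 were the highest and preirradiated tumor 1 the lowest, and the groups overlapped. The means were 10.19 ± 0.13 (SD, n = 4) in preirradiated and 10.31 ± 0.21 (SD, n = 4) in nonirradiated tumors, a difference of -0.12 (SE 0.11, 95% interval -0.37 to 0.13, limma adjusted p = 0.952). Leaving out nonirradiated tumor 1 gave -0.048, and leaving out nonirradiated tumor 3 gave -0.20.

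Ccr2, which Ccl2, Ccl7 and Ccl12 bind and which monocytes need to leave the bone marrow, read 9.37, 8.82, 8.53 and 8.46 in nonirradiated and 8.62, 8.94, 8.80 and 8.45 in preirradiated tumors. Nonirradiated tumor 1 stood above all others, while the other 3 of its group lay within the range of the preirradiated tumors. The means were 8.70 ± 0.21 in preirradiated and 8.79 ± 0.41 in nonirradiated tumors (SD, n = 4 each), a difference of -0.09 (SE 0.20, 95% interval -0.55 to 0.37, limma adjusted p = 0.989). Without nonirradiated tumor 1 the difference turned to 0.10, and without nonirradiated tumor 4 it was -0.20.

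Ccr1, a receptor of Ccl3, Ccl5 and, in the mouse, Ccl6 and Ccl9, read 8.14, 7.94, 7.97 and 7.97 in nonirradiated and 7.94, 8.09, 7.81 and 7.72 in preirradiated tumors. Preirradiated tumors 3 and 4 were below every nonirradiated tumor and preirradiated tumor 1 level with the lowest of them, but preirradiated tumor 2 was above 3. The means were 7.89 ± 0.16 in preirradiated and 8.01 ± 0.09 in nonirradiated tumors (SD, n = 4 each), a difference of -0.12 (SE 0.084, 95% interval -0.31 to 0.07, limma adjusted p = 0.923). Without preirradiated tumor 2 it was -0.18, the only tumor whose omission brought Ccr1 under an unadjusted p of 0.05, and without preirradiated tumor 4 it was -0.061.

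The macrophage and monocyte markers measured beside these receptors were all lower in preirradiated tumors in estimate (11 of 11), and their mean was 10.58 to 10.74 in nonirradiated and 10.50 to 10.57 in preirradiated tumors, without overlap. Relative to that mean, taken tumor by tumor, the receptors differed by 0.038 for Cx3cr1, 0.070 for Ccr2 and 0.042 for Ccr1, all with overlapping groups. In estimate all 3 receptors were lower by less than the marker mean was, and each of these differences is smaller than its SD within a group.

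**Figure D2:**
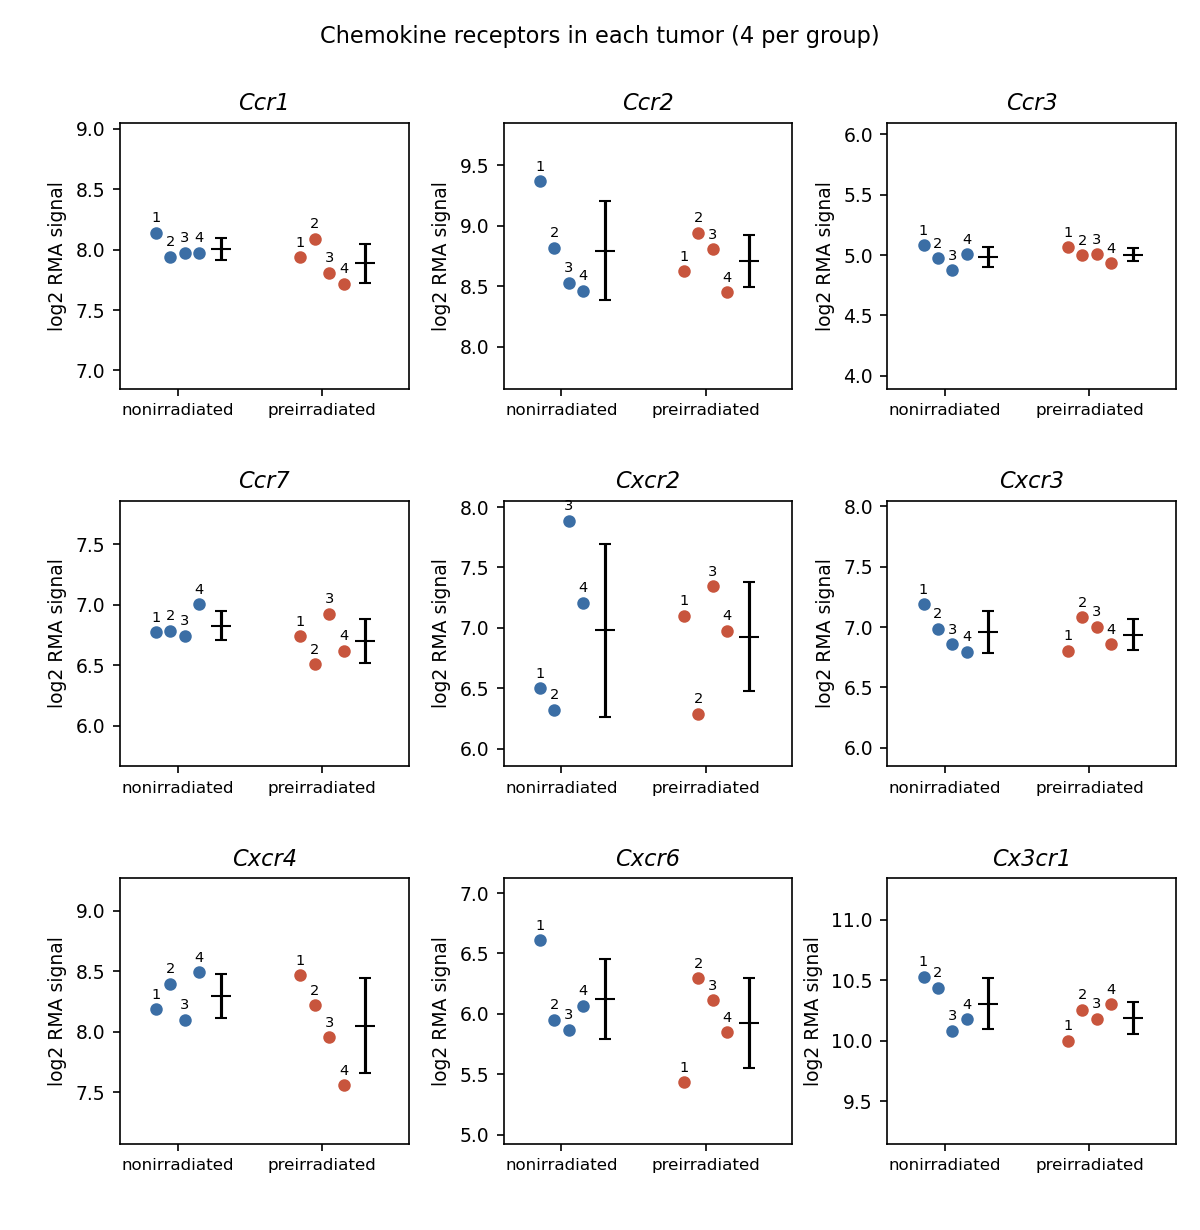
Log2 signal (vertical axis, the same span in every panel) of each of the 9 receptors in the 4 nonirradiated and 4 preirradiated tumors; points are tumors with their replicate number, and the bar gives the mean and SD of the group. The groups overlap in every panel, Cxcr2 spreads widest and Ccr3 stays near 5.0.

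Cxcr2, through which neutrophils follow Cxcl1, Cxcl2, Cxcl3, Cxcl5 and Ppbp, read 6.50, 6.32, 7.89 and 7.21 in nonirradiated and 7.10, 6.29, 7.34 and 6.98 in preirradiated tumors. The highest tumor was nonirradiated tumor 3 and the lowest preirradiated tumor 2, 3.02-fold apart, and each group held both high and low tumors. The means were 6.93 ± 0.45 in preirradiated and 6.98 ± 0.72 in nonirradiated tumors (SD, n = 4 each), a difference of -0.05 (SE 0.36, 95% interval -0.88 to 0.78, limma adjusted p = 0.998). In fold terms that interval runs from 0.543 to 1.72, so changes of that size were not detectable with 4 tumors a group. The sign rested on single tumors: the difference was 0.25 without nonirradiated tumor 3, 0.025 without nonirradiated tumor 4, 0.16 without preirradiated tumor 2 and -0.27 without nonirradiated tumor 2. It was -0.35 without both tumors high in muscle markers.

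Cxcr3, the receptor of the interferon-induced Cxcl9, Cxcl10 and Cxcl11, read 7.19, 6.99, 6.86 and 6.80 in nonirradiated and 6.80, 7.08, 7.003 and 6.86 in preirradiated tumors. Both groups covered nearly the same range, with nonirradiated tumor 1 at the top. The means were 6.94 ± 0.13 in preirradiated and 6.96 ± 0.17 in nonirradiated tumors (SD, n = 4 each), a difference of -0.02 (SE 0.096, 95% interval -0.24 to 0.20, limma adjusted p = 0.995). The sign turned when nonirradiated tumor 1 (0.056), preirradiated tumor 1 (0.023) or preirradiated tumor 4 (0.0054) was left out, and the value was -0.074 when nonirradiated tumor 4 was.

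Cxcr6, which binds Cxcl16 and is carried by T cells resident in tissue, read 6.61, 5.95, 5.87 and 6.07 in nonirradiated and 5.44, 6.30, 6.12 and 5.85 in preirradiated tumors. Preirradiated tumor 1 was the lowest and under the background floor, the other 7 were above it, and the span from lowest to highest was 2.25-fold. The means were 5.92 ± 0.37 in preirradiated and 6.12 ± 0.33 in nonirradiated tumors (SD, n = 4 each), a difference of -0.20 (SE 0.22, 95% interval -0.69 to 0.30, limma adjusted p = 0.968). It shrank to -0.037 without preirradiated tumor 1 and was -0.32 without preirradiated tumor 2. With the pan-leukocyte mean in the fit it was 0.35, past an unadjusted p of 0.05 but with an adjusted p near 1 in limma (0.9852).

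The mean of 10 T cell markers was 6.36 to 6.62 in nonirradiated and 5.99 to 6.50 in preirradiated tumors. Cxcr6 relative to the markers was -0.35 ± 0.16 in preirradiated and -0.35 ± 0.23 in nonirradiated tumors (SD, n = 4 each). The difference was -0.0016, with overlapping groups. Single tumors ran from -0.56 (preirradiated tumor 1) to -0.0091 (nonirradiated tumor 1). Cxcr3 relative to the markers was 0.66 ± 0.13 in preirradiated and 0.49 ± 0.16 in nonirradiated tumors (SD, n = 4 each), with overlapping groups.

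Cxcr4, the receptor of Cxcl12 that holds cells in the bone marrow and is also found on carcinoma cells, read 8.18, 8.40, 8.10 and 8.49 in nonirradiated and 8.47, 8.22, 7.95 and 7.56 in preirradiated tumors. The nonirradiated tumors were close together, and the preirradiated tumors ran from just under the highest nonirradiated tumor to well under the lowest. The means were 8.05 ± 0.39 in preirradiated and 8.29 ± 0.18 in nonirradiated tumors (SD, n = 4 each), a difference of -0.24 (SE 0.19, 95% interval -0.67 to 0.18, limma adjusted p = 0.934), the largest estimate of the 9. It was -0.079 without preirradiated tumor 4, the lowest, -0.38 without preirradiated tumor 1 and -0.40 without both tumors high in muscle markers.

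Ccr7, which brings dendritic cells and T cells to lymph nodes along Ccl19 and Ccl21, read 6.77, 6.78, 6.75 and 7.005 in nonirradiated and 6.74, 6.51, 6.93 and 6.62 in preirradiated tumors. All but 1 preirradiated tumor were below every nonirradiated tumor, and that 1, preirradiated tumor 3, was above 3 of them. The means were 6.70 ± 0.18 in preirradiated and 6.83 ± 0.12 in nonirradiated tumors (SD, n = 4 each), a difference of -0.13 (SE 0.097, 95% interval -0.35 to 0.09, limma adjusted p = 0.932). Preirradiated tumor 3 also had the highest muscle markers: the difference was -0.20 without it, -0.26 without both tumors high in muscle markers and -0.27 with the muscle mean in the fit, each under an unadjusted p of 0.05, while the smallest adjusted p over the alternatives was 0.6705. It was -0.064 without preirradiated tumor 2.

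Ccr3, the eotaxin receptor of eosinophils, read 5.08, 4.97, 4.87 and 5.01 in nonirradiated and 5.06, 5.00, 5.01 and 4.93 in preirradiated tumors, under the floor of 5.47 in all 8. The eosinophil granule genes Epx and Prg2 were under the floor in all tumors too. Of 6 measured eosinophil markers 2, Siglecf and Alox15, had means just above it (5.49 and 5.53), each exceeding it in only 4 of the 8 tumors. The difference in Ccr3 of 0.02 (SE 0.052, 95% interval -0.10 to 0.14, limma adjusted p = 0.990) is one between signals at background. It turned to -0.019 without nonirradiated tumor 3 and to -0.0034 without preirradiated tumor 1.

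Exact two-sided permutation tests over the 70 assignments of 8 tumors to 4 and 4, run for each receptor on its own, gave p from 0.2 (Ccr1) to 0.914 (Cxcr3).

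Of the 9 receptors 4 varied between tumors of the same bed more than nearly all genes did, and Ccr3 varied less than most. Among 13606 genes above the floor the median SD within groups was 0.10. Cxcr2, at 0.60, exceeded 99.3% of them, Cxcr6 at 0.35 exceeded 97.8%, Ccr2 at 0.33 exceeded 97.4% and Cxcr4 at 0.30 exceeded 96.8%. Ccr1, the least variable of the receptors above the floor, had an SD of 0.13, larger than 70.3% of genes, and Ccr7, Cxcr3 and Cx3cr1 exceeded 79.8%, 79.4% and 86.2%. Ccr3, under the floor, had an SD of 0.072, larger than 24% of genes. Nonirradiated tumor 1 was the highest of the 8 for 6 receptors (Ccr1, Ccr2, Ccr3, Cxcr3, Cxcr6 and Cx3cr1), nonirradiated tumor 4 for Ccr7 and Cxcr4, and nonirradiated tumor 3 for Cxcr2. No preirradiated tumor was the highest for any of the 9. The lowest value was in preirradiated tumor 4 for Ccr1, Ccr2 and Cxcr4, in preirradiated tumor 1 for Cxcr6 and Cx3cr1, in preirradiated tumor 2 for Ccr7 and Cxcr2, and in nonirradiated tumors 3 and 4 for Ccr3 and Cxcr3.

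**Figure D3:**
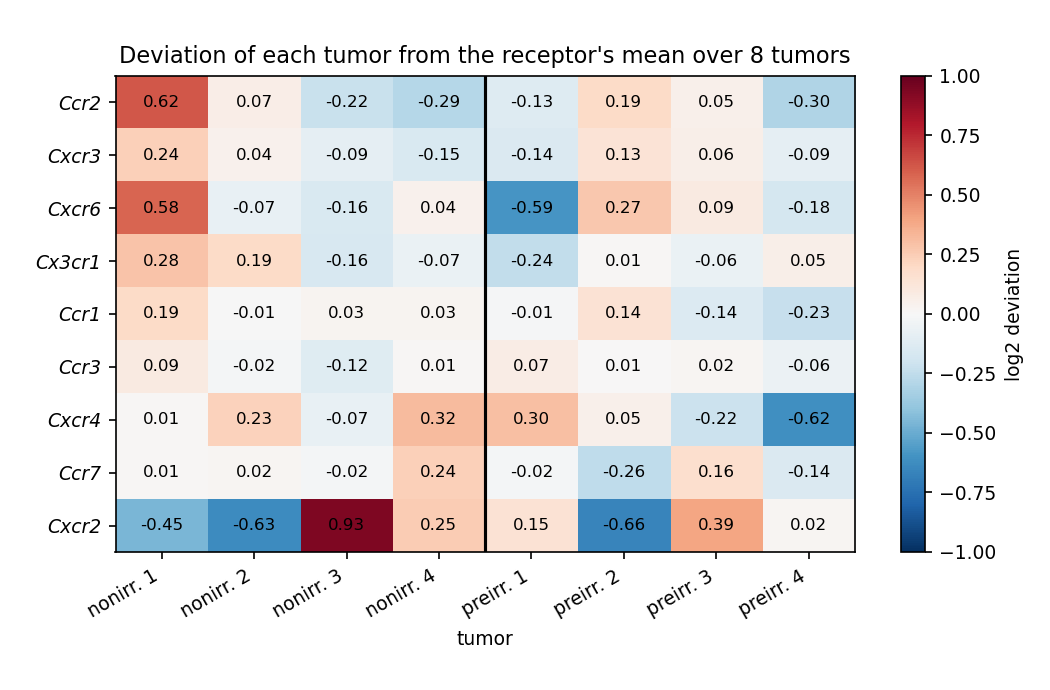
Deviation of each tumor (columns) from the receptor's mean over all 8 tumors (rows), log2, with colour and printed value giving the size. Ccr2, Cxcr3, Cxcr6 and Cx3cr1 are all highest in nonirradiated tumor 1, and Cxcr2 runs the other way with its peak in nonirradiated tumor 3.

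Some receptors were high and low in the same tumors, whatever the bed. The following correlations are across 8 tumors that share 1 cell line and 1 normalization, and they are given as a description. The r after leaving out 2 is the value without the 2 tumors farthest from the median of 1 measure of the pair. That measure is the marker mean or ligand where the pair has one, and the receptor beside its most similar genes. For 2 receptors it is the one named first in the opening list. Ccr2 and Cxcr3 kept closest to each other (Pearson r = 0.946, Spearman ρ = 0.857, r = 0.945 without nonirradiated tumor 1 and preirradiated tumor 4). Cxcr6 followed Cxcr3 (r = 0.839, ρ = 0.762) and Ccr2 (r = 0.757, ρ = 0.714) less tightly, with r of 0.508 and 0.462 after leaving out 2 tumors. Cx3cr1 followed Cxcr3 (r = 0.740, ρ = 0.643) and Ccr2 (r = 0.678, ρ = 0.5), with r of 0.584 and 0.569 after leaving out 2 tumors. The link of Cxcr6 and Cx3cr1 (r = 0.718, ρ = 0.548) rested on nonirradiated tumor 1 and preirradiated tumor 1 and was -0.043 without them. Cxcr2 gave r below 0 with 7 of the 8 other receptors, lowest with Cx3cr1 (r = -0.713, ρ = -0.667, r = -0.817 after leaving out 2). Of these only the r with Ccr3, at background, turned above 0 after leaving out 2 (from -0.474 to 0.301). The r with Cxcr4 was weak (-0.185, and -0.164 after leaving out 2). Of the 36 pairs, 5 had r over 0.7 and 15 were below 0.

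Set beside marker means, Cxcr2 followed the 10 neutrophil markers (r = 0.943, ρ = 0.976, r = 0.935 without nonirradiated tumor 3 and preirradiated tumor 3), whose mean ran from 6.58 to 7.42 in nonirradiated and from 6.49 to 7.10 in preirradiated tumors. Cxcr6 followed the T cell markers (r = 0.890, ρ = 0.881, r = 0.835 after leaving out 2), and for Cxcr3 the values were lower (r = 0.618, ρ = 0.452, r = 0.428 after leaving out 2). That difference between receptors was not tested. The monocyte and macrophage receptors followed their marker mean loosely: r was 0.623 for Cx3cr1 (0.607 after leaving out 2), 0.378 for Ccr2 (0.201) and 0.390 for Ccr1 (-0.0063). For Ccr7 and the dendritic cell markers r was 0.235 (0.0787 after leaving out 2), and for Ccr3 and the eosinophil markers it was -0.287 (-0.154). Cxcr4 and the pan-leukocyte markers gave r = 0.145 over 8 tumors and 0.811 without nonirradiated tumor 1 and preirradiated tumor 1. All receptors but Cxcr2 and Cxcr6 had a higher r with another marker list than with the one set beside them above. For Ccr1 r was highest with the NK cell markers (0.693, and 0.2265 after leaving out 2). It was highest with the dendritic cell markers for Cx3cr1 (0.674 and 0.812) and with the B cell markers for Ccr7 (0.609 and 0.0213). With the mast cell markers it was highest for Ccr3, at background (0.613 and 0.870), and for Cxcr4 (0.555 and 0.259). Cxcr3 gave r = 0.757 and ρ = 0.833 with the NK cell markers (r = 0.254 after leaving out 2), of which 2 of 7 were above the floor. Ccr2 gave r = 0.763 and ρ = 0.833 with the mast cell markers (0.755 after leaving out 2; 3 of 6 above the floor) and r = 0.689 with the NK cell markers (-0.0541). Cxcr6 gave r = 0.870 with the pan-leukocyte (0.350 after leaving out 2) and 0.845 with the NK cell markers (0.567). Both were under its r of 0.890 with the T cell markers.

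**Figure D4:**
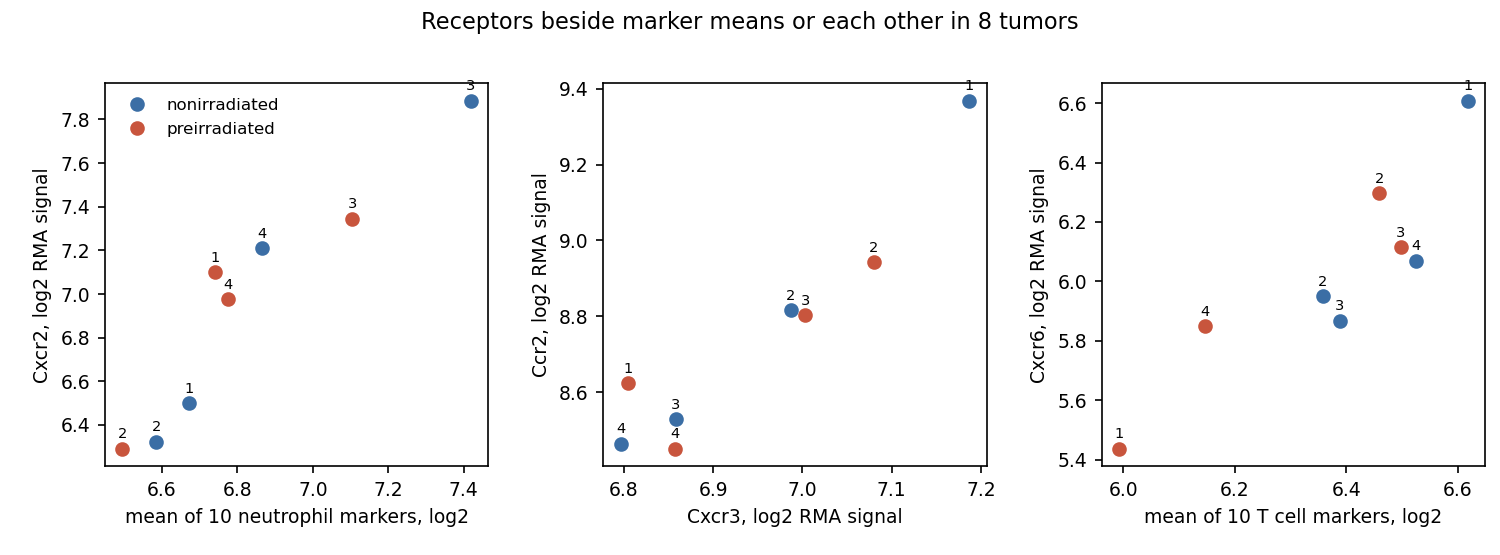
Log2 signal of Cxcr2 against the mean of the neutrophil markers, of Ccr2 against Cxcr3, and of Cxcr6 against the mean of the T cell markers; each point is 1 of 8 tumors with its replicate number, coloured by bed. Tumors of both beds lie along the same course in each panel (r = 0.943, 0.946 and 0.890).

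The single genes most like each receptor across the tumors, out of 17150 ranked, were chosen by the highest r. For Cxcr2 they were Retnlg (r = 0.974, ρ = 1), S100a8 (r = 0.973) and Il1f9 (r = 0.966); Retnlg and S100a8 are known as neutrophil transcripts. For Cxcr3 they were Clec12a (r = 0.993), Mgat4f (r = 0.985) and Arhgap15 (r = 0.981), and Mgat4f was also among the 3 for Ccr2 (r = 0.948), after Wdr44 (r = 0.961) and Zc3h12d (r = 0.960). For Cxcr6 they were Gpr65 (r = 0.979), Atpaf1 and Mrpl39, for Cx3cr1 the complement factor gene Cfb (r = 0.975), Hfe and Pex7, and for Cxcr4 Erf (r = 0.980), Cd93 and Klf3. For Ccr1 they were Drg1 (r = 0.981), Zfp442 and Pds5b, for Ccr7 Klk7 (r = 0.942), Dkkl1 and Rab31, and for Ccr3, at background, an immunoglobulin kappa variable gene, Sprr2b and Plac1. Mgat4f, Klk7 and Dkkl1 had means under the floor of 5.47 (4.79, 5.42 and 5.28), as did the 3 genes named for Ccr3. After leaving out 2 tumors r ran from 0.781 (Sprr2b with Ccr3) to 0.985 (Clec12a with Cxcr3) over all these pairs. The highest of 17150 correlations over 8 tumors is high for any gene, and no test was made.

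The ligands of these receptors were lower in estimate more often than not, and some of them by more than the receptors. Of 22 listed, 21 had a probe set of their own, and 17 of the 21 were lower in preirradiated tumors with a median difference of -0.09. By limma 0 of 21 passed the adjusted threshold; at an unadjusted p under 0.05, 5 were lower, against 2.97% of all probe sets, and 0 were higher, against 2.84%. The study's filter kept 3 as lower (Ccl5, Ccl12 and Ccl24), against 0.153% of all probe sets, and 1 (Ccl9) was lower without overlap, against 1.68%. Without preirradiated tumor 1, or with the muscle mean in the fit, the count of 5 dropped to 3. Ccl5 and Ccl12 each lost the study's filter without certain tumors, as given with their values.

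Ccl9, a Ccr1 ligand, read 9.61, 9.77, 9.77 and 9.75 in nonirradiated and 9.55, 9.39, 9.57 and 9.53 in preirradiated tumors. Every preirradiated tumor was below every nonirradiated one, by a small margin. The means were 9.51 ± 0.08 in preirradiated and 9.72 ± 0.07 in nonirradiated tumors (SD, n = 4 each), a difference of -0.22 (SE 0.054, limma adjusted p = 0.674). Ccl6, the other Ccr1 ligand of this kind, differed by -0.34 (SE 0.12, limma adjusted p = 0.812).

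Ccl24, an eotaxin that acts on Ccr3, read 7.48, 7.44, 8.03 and 8.10 in nonirradiated and 7.44, 7.09, 6.99 and 7.10 in preirradiated tumors. Nonirradiated tumors 3 and 4 were high, and preirradiated tumor 1 came level with nonirradiated tumors 1 and 2. The difference was -0.60 (SE 0.17, limma adjusted p = 0.763), with means of 7.16 ± 0.20 in preirradiated and 7.76 ± 0.35 in nonirradiated tumors (SD, n = 4 each). Ccl11, the other eotaxin measured, stood the other way in estimate, at 0.23 (SE 0.13).

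Ccl12, a Ccr2 ligand, read 7.52, 7.63, 7.89 and 7.74 in nonirradiated and 7.28, 7.05, 6.83 and 7.56 in preirradiated tumors. The groups met at preirradiated tumor 4 and nonirradiated tumor 1. The means were 7.18 ± 0.31 in preirradiated and 7.70 ± 0.16 in nonirradiated tumors (SD, n = 4 each), a difference of -0.51 (SE 0.15, limma adjusted p = 0.763). The other Ccr2 ligands, Ccl2 at -0.25 (SE 0.19) and Ccl7 at -0.28 (SE 0.16), did not pass the unadjusted threshold. Ccl12 was -0.399 without preirradiated tumor 3 and -0.392 without both tumors high in muscle markers, just short of the filter's 0.4, and -0.364 with the muscle mean in the fit.

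Ccl5, which binds Ccr1 and Ccr3, read 8.96, 8.63, 8.51 and 8.57 in nonirradiated and 7.94, 8.45, 8.52 and 7.95 in preirradiated tumors. Preirradiated tumors 1 and 4, the tumors with the lowest T cell marker means, were the lowest, and preirradiated tumor 3 lay within the nonirradiated range. The difference was -0.45 (SE 0.16, limma adjusted p = 0.812). It missed the filter at -0.357 without nonirradiated tumor 1, -0.363 without preirradiated tumor 1 and -0.368 without preirradiated tumor 4. With array weights it was -0.373, and with the pan-leukocyte mean in the fit -0.076.

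**Figure D5:**
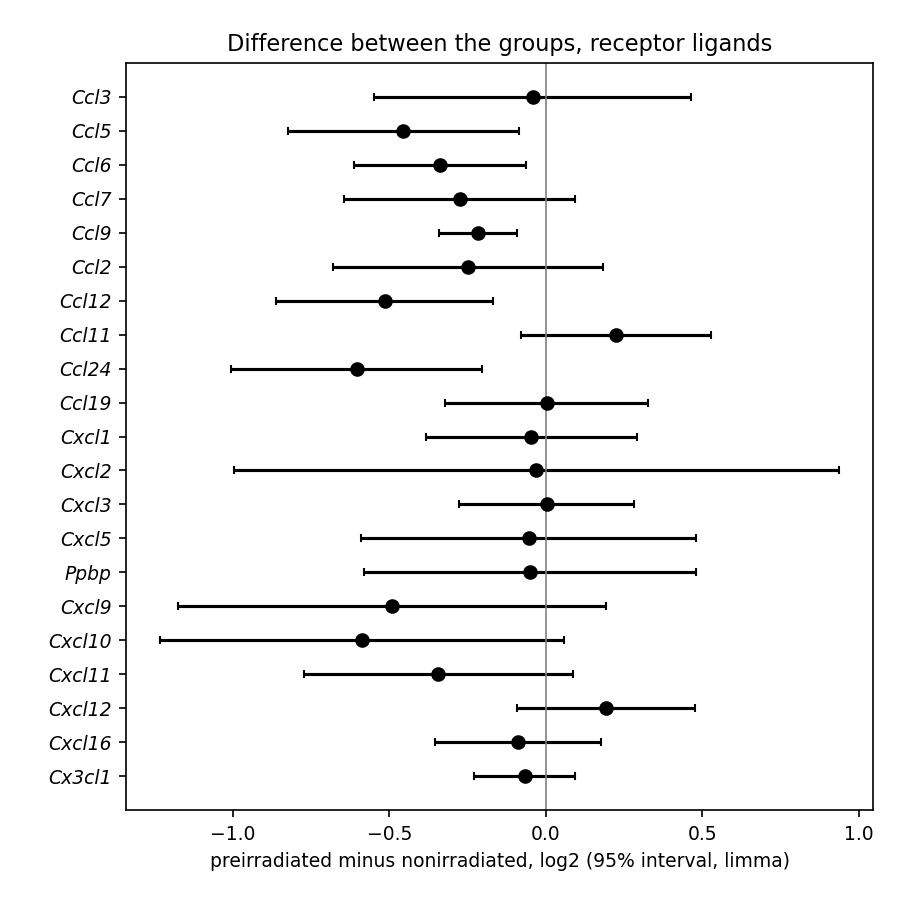
Difference of each of the 21 ligands between the groups (horizontal axis, preirradiated minus nonirradiated, log2), as estimated by limma with its 95% interval, 4 tumors against 4. Ccl5, Ccl6, Ccl9, Ccl12 and Ccl24 have intervals under 0, and Ccl11 and Cxcl12 lie highest at 0.23 and 0.19.

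The interferon-induced ligands of Cxcr3 varied widely between tumors. Cxcl10 read 10.65, 10.25, 10.36 and 9.53 in nonirradiated and 8.94, 9.91, 9.77 and 9.83 in preirradiated tumors. Nonirradiated tumors 1 to 3 were above every preirradiated tumor and nonirradiated tumor 4 was under 3 of them, and the difference was -0.59 (SE 0.28, limma adjusted p = 0.869). Cxcl9 differed by -0.49 (SE 0.30) and Cxcl11 by -0.34 (SE 0.19); all 3 were lowest in preirradiated tumor 1 and highest in nonirradiated tumor 1. Across the 8 tumors Cxcr3 followed Cxcl9 (r = 0.781, ρ = 0.810, r = 0.735 after leaving out 2), Cxcl11 (r = 0.699, ρ = 0.714, r = 0.538) and Cxcl10 (r = 0.659, ρ = 0.690, r = 0.192).

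The Cxcr2 ligands differed little between beds and moved with the receptor across tumors. Cxcl2 read 6.08, 6.40, 7.88 and 6.91 in nonirradiated and 7.04, 5.95, 7.34 and 6.83 in preirradiated tumors, so that the highest and the lowest tumor were those of Cxcr2. It differed by -0.03 (SE 0.42) between the beds and gave r = 0.966 and ρ = 0.952 with Cxcr2 (r = 0.912 without nonirradiated tumor 3 and preirradiated tumor 2). Cxcl5 (r = 0.908, and 0.909 after leaving out 2), Cxcl3 (0.879 and 0.774), Ppbp (0.869 and 0.642) and Cxcl1 (0.646 and 0.370) were also high where Cxcr2 was. Cxcl5, Cxcl3 and Ppbp lay near the floor of 5.47, with means of 5.77, 5.67 and 5.62. They were above it in 6, 7 and 6 of the 8 tumors. Among other pairs r was 0.641 for Ccr1 and Ccl5 (0.508 after leaving out 2), 0.619 for Cxcr6 and Cxcl16 (0.441) and 0.446 for Ccr7 and Ccl19 (0.497). It was 0.145 for Cx3cr1 and Cx3cl1 (0.101), -0.377 for Ccr2 and Ccl2 (-0.136) and -0.0045 for Cxcr4 and Cxcl12, which became -0.597 without preirradiated tumor 1 and nonirradiated tumor 1.

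Among the other conventional chemokine receptors 8 of 9 listed were measured, and only Ccr10 and Xcr1, a receptor of cross-presenting dendritic cells, had means above the floor. None of the 8 passed an adjusted p or an unadjusted p of 0.05 in limma, 6 were lower in estimate, and the median was -0.04. The 3 with the smallest p were Ccr9 (-0.09), Ccr4 (-0.05) and Cxcr5 (-0.05), all under the floor. Without nonirradiated tumor 1 the count at the unadjusted threshold was 1, Ccr10 at -0.18. Of the 5 atypical receptors, most of which take up chemokines without G protein signalling, Ackr3 and Ccrl2 were above the floor. Ccrl2 differed by -0.16 (SE 0.13), Ackr1, under the floor, by 0.08 and Ackr3, which takes up Cxcl12, by 0.008. None of the 5 passed either threshold, and without nonirradiated tumor 2 the count at the unadjusted one was 1, Ccrl2 at -0.29. Without nonirradiated tumor 4 Ccrl2 was -0.07.

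Of the genes that carry the signal inside the cell 20 of 21 listed were measured, and 14 were lower in estimate with a median of -0.04. At an unadjusted p under 0.05, 2 were lower, against 2.97% of all probe sets, and 0 higher, against 2.84%. Rac2, a small GTPase of blood cells, was 10.31 ± 0.13 in preirradiated and 10.58 ± 0.07 in nonirradiated tumors (SD, n = 4 each), a difference of -0.26 at a limma adjusted p of 0.674, and the groups did not overlap, the 1 gene of 20 lower in that way, against 1.68%. Prex1, a Rac activator, differed by -0.15 (SE 0.058) and Grk6, a kinase that desensitizes receptors, by 0.15 (SE 0.080), or 0.072 without preirradiated tumor 4, its highest. Leaving out nonirradiated tumor 3 raised the count of 2 to 5, leaving out nonirradiated tumor 4 or preirradiated tumor 3 made it 1, and with the pan-leukocyte mean in the fit the Rac2 difference was -0.13. None passed the adjusted threshold.

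Of the adhesion genes that act beside the receptors when a leukocyte leaves the vessel, 11 of 13 listed were measured and 9 were lower in estimate, with a median of -0.19. At an unadjusted p under 0.05, 4 were lower (Itgam, Vcam1, Itgal and Icam1), against 2.97% of all probe sets, and 1 was higher (Itgb1), against 2.84%, none past the adjusted threshold in limma. Itgam, the myeloid integrin chain CD11b, was 10.07 ± 0.05 in preirradiated and 10.27 ± 0.05 in nonirradiated tumors (SD, n = 4 each; difference -0.20, SE 0.041, limma adjusted p = 0.62). Vcam1, the endothelial ligand of the integrin VLA-4, was 10.34 ± 0.06 in preirradiated and 10.63 ± 0.12 in nonirradiated tumors (difference -0.29, SE 0.064, limma adjusted p = 0.62), and both genes were lower in every preirradiated tumor than in any nonirradiated one. Itgb1, which many cells carry, was 11.13 ± 0.04 in preirradiated and 11.02 ± 0.05 in nonirradiated tumors (difference 0.11, SE 0.039) and did not overlap either, so that 3 of 11 had groups apart, against 3.36% of all probe sets. The count of 4 was 2 without nonirradiated tumor 1 or preirradiated tumor 1.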

How the data were processed

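RNA of 8 whole tumors was measured on 1 array each. The deposited log2 values per probe set were made by the authors with RMA in the affy package of Bioconductor 2.4, per the series' design text; R 2.15.3 and affy are listed in the submitters' processing notes. RMA corrects background and makes the arrays' distributions alike, so a change in total RNA cannot be seen, and changes near background are understated. The sources used here do not name the chip description file.

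Of 34760 probe sets, 34738 with a mean of at least 4.0, the study's limit, were tested and 22 left out. Platform annotation gave 21640 probe sets 1 symbol, 1321 several and 11799 none; of these, the 1 with the highest mean stood for each of 19937 genes. Groups came from the sample titles. The preirradiated minus nonirradiated difference was fitted on all 34738 probe sets with limma 3.58.1 in R 4.3.3 (lmFit, eBayes, two-sided, Benjamini-Hochberg over all probe sets), the test the design text names, after the code was tested on simulated data. The number of arrays limits the precision.

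The members, the lists of ligands, receptors, signalling, adhesion and marker genes, and the rule for named genes (all members; the 3 smallest p of each list; ligands and receptors past the study's filter or without overlap; the 3 genes most like each member, without predicted genes, small RNAs, olfactory or vomeronasal receptors) were chosen with earlier results of these data known; genes named beyond the rule (other ligands, Ccr10, Ackr3, Xcr1 and eosinophil markers) were chosen after their values were seen. Probe sets of different genes are not compared in level.

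Other expression limits, variance models, scalings, array weights, marker covariates, a replicate block and left-out tumors were tried as alternatives.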

Additional observations from a re-analysis of the deposited data

Results flagged for a closer look

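In each group of 4 tumors the highest and the lowest value were checked for distance from the rest (Dixon's criterion). Of 78 groups of values 8 passed, where chance passes about 1 in 20, and 2 of the 18 groups of receptor values were among them. For Ccr1 nonirradiated tumor 1, at 8.14, stood above the other nonirradiated tumors, the nearest of which was at 7.97. For Ccr7 nonirradiated tumor 4, at 7.005, stood above its group, with the nearest at 6.78.

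Nonirradiated tumor 4 also had the highest mean of the B cell markers, 5.70, with the nearest tumor at 5.26; the part of this in its Ccr7 value was not tested. The ligand Ccl9 was lowest of its group in nonirradiated tumor 1, at 9.61. The remaining values lie in preirradiated tumors and, for both genes, under the background floor: Ackr4 was high in preirradiated tumor 4, at 5.16, and Ccr9 high in preirradiated tumor 2, at 5.11. The eosinophil marker mean was low in preirradiated tumor 2, at 5.07, and the mast cell marker mean low in preirradiated tumor 4, at 5.38.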

How the results depend on the processing

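Over 20 alternatives, 8 of them leaving out 1 tumor, no receptor passed the adjusted threshold. Ccr1, Ccr7 and Cxcr4 kept their sign in all of them. The expression limits, variance models, replicate block and the fit with 1 probe set per gene change p-values but not a difference. No sign could change in those. Of 25 gene differences, 7 changed sign somewhere, 6 of them receptors; the causes were not tested. With array weights Ccr2 was 0.0174 and Cxcr3 0.0179. With the pan-leukocyte mean in the fit Ccr2 was 0.2843, Cxcr3 0.1702, Cxcr6 0.3548 and Cx3cr1 0.0109, and 4 receptors were lower. Ccr3 was -0.0161 with arrays centred on their medians. Without both muscle-high tumors Ccr3 was -0.0174, Cxcr3 0.0116 and Ackr4 0.0231, and with the muscle mean in the fit Ccr3 was -0.0087 and Ackr4 0.0196. Leaving out 1 tumor, Ccr2 ran from -0.20 to 0.1017, Ccr3 from -0.0187 to 0.0508, Cxcr2 from -0.27 to 0.2507, Cxcr3 from -0.0744 to 0.0557 and Ackr4 from -0.0315 to 0.0089.

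At an unadjusted p under 0.05 the receptors' count of 0, in either direction, was 0 to 1 leaving out 1 tumor. It was 1 without both muscle-high tumors and with the muscle mean (Ccr7, lower), and 1 with the pan-leukocyte mean (Cxcr6, higher). The counts for the lists that follow are of lower genes. The ligands' 5 was 3 with the muscle mean and 3 to 5 leaving out 1 tumor. The other conventional receptors' 0 was 1 with median centring, 1 with the pan-leukocyte mean and 0 to 1 leaving out 1 tumor, and the atypical receptors' 0 was 0 to 1. The signalling genes' 2 was 1 with a further quantile normalization, 5 with median centring, 1 with either marker mean, and 1 to 5 leaving out 1 tumor. With the pan-leukocyte mean Plcb2 was also higher at that threshold, at 0.21. The adhesion genes' 4 was 2 without both muscle-high tumors and with either marker mean, and 2 to 5 leaving out 1 tumor.

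Tumors with the same replicate number share only the number: their deviations correlated at -0.2892 to -0.0752. With the number as a replicate block the differences stay the same by design, so 8 receptors were again lower. In that fit 0 receptors passed the unadjusted threshold and 4 ligands did, without Ccl5 (unadjusted p 0.0506 in limma). At a mean limit of 6.0 Ccr3 and other dim genes gave no value. The 4 tumors a group limit what can be detected, most of all for Cxcr2.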
